A study of Mus musculus with 6 samples.

Results

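The small nucleolar RNAs (snoRNA), small Cajal body RNAs (scaRNA) and small nuclear RNAs (snRNA) of mouse germinal center B cells are described here. They are the rows of the authors' deposited table whose gene type is 1 of these 3 and whose mean over the 6 libraries was at least 1 normalized count, that is, reads divided by a size factor per library. Of 289 such rows in a table of 19680 genes, 116 reached that mean: 86 of 182 snoRNAs, 7 of 16 scaRNAs and 23 of 91 snRNAs. The other 173 rows, 96 snoRNAs, 9 scaRNAs and 68 snRNAs, lay below it. The members were thus chosen by their mean level over all libraries, which is given as a description. Just inside the threshold stood the snRNA Gm23966, with a mean of 1.03 from 5 reads, and the snoRNA Gm22980, with 1.03 from 6 reads, and just outside it the snRNA Gm22107 (0.988, 6 reads) and the snoRNA Gm22516 (0.981, 7 reads).

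The study asked how loss of the SUMO protease SENP1, which removes the small protein tag SUMO from other proteins, changes germinal center B cells. Control animals (WT, 3 libraries) carried Senp1flox/flox without Cre, and conditional knockouts (cKO, 3 libraries) carried Senp1flox/flox with Cγ1-Cre, a recombinase under the control of the IgG1 constant region gene that acts in activated B cells. Both groups were C57BL/6 mice aged 6 to 8 weeks that received 100 µg of NP-CGG, a hapten coupled to chicken gamma globulin, by the intraperitoneal route, and germinal center cells (B220+ CD38- FAS+) were sorted from the spleen at day 14. The controls thus share the floxed alleles, strain and immunization with the knockouts and by their labels differ only in the Cre. Whether each library came from 1 animal is not stated in the labels, so the spread between libraries may be partly technical.

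A snoRNA guides an enzyme to a base of ribosomal RNA in the nucleolus. Box C/D snoRNAs carry the methylase fibrillarin and box H/ACA snoRNAs the pseudouridine synthase dyskerin, and in mammals most of both are cut and trimmed out of the spliced introns of host genes. scaRNAs have the same boxes but stay in Cajal bodies, where they guide modification of the spliceosomal snRNAs. The snRNAs are transcribed from their own promoters, by RNA polymerase II for U1, U2, U4, U5 and the minor U12 and by polymerase III for U6, and form the cores of the spliceosome.

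The 3 types were read from the gene type in the authors' table, and the boxes marked below do not fully separate them. The members on which the results turn are shown here as GENCODE M21 transcripts on GRCm38, 5′ to 3′. The first 3 share 1 host, the ribosomal protein gene Rps12 on the minus strand of chromosome 10, and show both snoRNA classes side by side. Gm23130 lies at chr10:23786470-23786543, Snord100 at chr10:23785750-23785823 and Snora33 at chr10:23785347-23785475, each over an exon of some Rps12 isoform. Snord104, at chr11:106500993-106501062 on the plus strand, has no host gene on its strand, and Snora28, at chr12:111540941-111541067 on the plus strand, lies in Eif5. Capitals mark the C box TGATGA within the first 20 bases, the D box CTGA within the last 15, or ACA within the last 8, all searched on the RNA's own strand.
Gm23130: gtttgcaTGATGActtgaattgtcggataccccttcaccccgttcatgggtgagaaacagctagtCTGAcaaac
Snord100: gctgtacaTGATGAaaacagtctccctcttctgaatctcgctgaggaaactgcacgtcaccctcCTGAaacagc
Snora33: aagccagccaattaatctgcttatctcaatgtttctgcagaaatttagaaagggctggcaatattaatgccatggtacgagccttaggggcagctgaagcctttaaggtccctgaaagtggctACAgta
Snord104: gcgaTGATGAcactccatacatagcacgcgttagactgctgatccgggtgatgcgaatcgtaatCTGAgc
Snora28: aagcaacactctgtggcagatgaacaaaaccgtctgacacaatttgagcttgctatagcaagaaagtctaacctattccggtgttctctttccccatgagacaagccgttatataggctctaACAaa

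Among scaRNAs, Gm22767 was the only member with reads in every library. It lies in an intron of Ppp1r8 at chr4:132838383-132838547 on the minus strand and ends like an H/ACA RNA. Scarna6, in an intron of Atg16l1 at chr1:87784556-87784820 on the plus strand, opens and closes with C and D boxes, so the type holds both box classes. Capitals are as above.
Gm22767: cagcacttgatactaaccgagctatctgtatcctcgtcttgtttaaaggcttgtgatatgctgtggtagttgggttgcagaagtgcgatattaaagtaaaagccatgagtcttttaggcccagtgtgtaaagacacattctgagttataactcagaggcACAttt
Scarna6: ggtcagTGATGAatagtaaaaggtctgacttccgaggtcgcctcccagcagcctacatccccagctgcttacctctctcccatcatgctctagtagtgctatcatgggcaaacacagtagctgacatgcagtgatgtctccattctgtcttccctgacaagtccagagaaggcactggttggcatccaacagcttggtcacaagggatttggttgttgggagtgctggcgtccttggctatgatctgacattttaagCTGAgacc

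The next pair of snRNAs shows the ATTTTTG run, in capitals, which resembles the site that binds the ring of Sm proteins. Gm24265 lies at chr5:115489459-115489599 and Rnu12, the RNA of the minor spliceosome that pairs with the branch point, at chr15:83149644-83149794, both on plus strands and neither inside a host gene. The run was found on the RNA's own strand in 4 of 23 snRNA members (17.4%) and in 3.33% of the 1383 snRNAs annotated in GENCODE M21.
Gm24265: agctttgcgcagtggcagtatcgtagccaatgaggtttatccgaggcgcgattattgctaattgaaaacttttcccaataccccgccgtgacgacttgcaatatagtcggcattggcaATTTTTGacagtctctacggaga
Rnu12: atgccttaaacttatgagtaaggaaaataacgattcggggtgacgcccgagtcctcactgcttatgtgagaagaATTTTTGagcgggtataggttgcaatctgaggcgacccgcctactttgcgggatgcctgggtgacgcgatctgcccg

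The last set shows how alike the copies are. Rnu1a1 (chr11:87422867-87423030, plus strand) and Gm22513 (chr12:54696782-54696945, plus strand) are U1 copies that differ by 1 base, T60C, and Gm24305 (chr12:54734555-54734718, minus strand) differs from Rnu1a1 by A26G. Positions count from 1 at the 5′ end, and no motif is marked. Rnu1a1 has 6 identical copies in the annotation and Gm24722, a U6 copy not printed here, has 42, and the sources used here do not say how reads that match several places were assigned, so the values of single copies are uncertain.
Rnu1a1: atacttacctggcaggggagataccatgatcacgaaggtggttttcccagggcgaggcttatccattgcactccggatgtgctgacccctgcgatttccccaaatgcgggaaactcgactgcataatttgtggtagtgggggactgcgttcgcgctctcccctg
Gm22513: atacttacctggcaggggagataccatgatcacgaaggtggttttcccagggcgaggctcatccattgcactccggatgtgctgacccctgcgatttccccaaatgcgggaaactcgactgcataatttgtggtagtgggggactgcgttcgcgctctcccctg
Gm24305: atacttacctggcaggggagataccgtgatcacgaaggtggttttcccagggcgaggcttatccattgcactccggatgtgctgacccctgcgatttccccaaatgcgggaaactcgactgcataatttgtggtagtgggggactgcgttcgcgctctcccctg

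The libraries held between 3019152 and 10339054 reads assigned to genes, with cKO replicates 2 and 3 the shallowest, so a single read came to 0.506 to 1.06 normalized counts in the WT libraries and 0.542 to 2.04 in the cKO libraries. Senp1 itself was at 891 ± 23.7 normalized counts in WT and 399 ± 26.3 in cKO (SD, n = 3 each), lower in all 3 knockouts. Its log2 difference of -1.16 ± 0.122 had the smallest Benjamini-Hochberg adjusted p in limma's fit, 0.111, so no gene passed 0.05, the deleted one included. All 12 germinal center B cell markers were present in the table. Of these 8 were lower and 4 higher in cKO, with sums from 50324 to 51315 in WT and from 45425 to 49654 in cKO. Mitochondrial genes took 2.71%, 7.92% and 9.83% of WT reads, in the order of replicates 1 to 3, and 3.66%, 12.3% and 19.1% of cKO reads. T cell markers, summed over 12 genes, ran from 654 to 792 in WT and from 535 to 2204 in cKO, with 9 of 12 higher in cKO. The sum of 10 macrophage and myeloid markers ran from 120 to 319 and from 306 to 556, with all 10 higher (median log2 difference 0.77). For 5 plasma cell markers, 3 higher and 2 lower, it ran from 8328 to 12944 and from 7121 to 16063. limma called 0 genes in each of these marker lists. None of these markers was at 0 in all libraries, and their part in the results was not tested. In bulk RNA, fewer cells of a type and less RNA per cell cannot be told apart.

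The members together took 2659 reads. The median member had 18.5 reads over all 6 libraries among snoRNAs and 9 among both scaRNAs and snRNAs. Reads in every library were found for 35 snoRNAs, 1 scaRNA and no snRNA. Per 100 bases of transcript, the median level was 2.44 normalized counts for snoRNAs, 1.16 for scaRNAs and 1.34 for snRNAs, and 3.53 for C/D box against 2.05 for H/ACA box snoRNAs. The median length was 75 bases for C/D box snoRNAs, 133 for H/ACA box snoRNAs, 140 for scaRNAs and 108 for snRNAs.

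Across genotypes, no single small RNA passed the test. In limma's fit of log2(value + 1) over 14678 genes, 0 of 116 members passed a Benjamini-Hochberg adjusted p of 0.05, against a background of 0.0% of all genes higher and 0.0% lower, and the smallest adjusted p of a member was 0.915. At an unadjusted p under 0.05, 3 members were higher in cKO (2.59%; all genes, 2.98%) and 1 was lower (0.862%; all genes, 2.17%). edgeR and DESeq2 on the recovered reads also called 0 members, with 2 and 1 members higher at an unadjusted p under 0.05 and 0 lower in each. All 3 cKO values lay above all 3 WT values for 9 members (7.76%; all genes, 6.28%) and below them for 1 (0.862%; all genes, 5.28%). Some members reached the mean of 1 mainly through cKO reads, so these counts are partly set by that choice. The authors' deposited table gives an adjusted p for 23 members, none under 0.05, and a p under 0.05 for 1 of them, Gm24265 (p = 0.0214, adjusted p = 0.915).

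By type, the median log2 difference, cKO minus WT, was 0.09 over 86 snoRNAs (49 higher in cKO, 37 lower), 0.24 over 7 scaRNAs (6 higher) and 0.53 over 23 snRNAs (16 higher, 7 lower). The same median was 0.00 over all genes tested, 49.8% of them higher, and 0.08 over the 3958 genes with a mean under 10. The sign of each median turned when 1 library was left out: to -0.13 for snoRNAs without WT replicate 1 (and to -0.03 without cKO replicate 3), to -0.07 for scaRNAs without cKO replicate 2 and to -0.30 for snRNAs without cKO replicate 3. The median standard error of a member's difference was 0.729 for snoRNAs, 0.844 for scaRNAs and 0.878 for snRNAs, against 0.286 over all genes. Fold changes on this scale are understated at such low values.

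**Figure D1:**
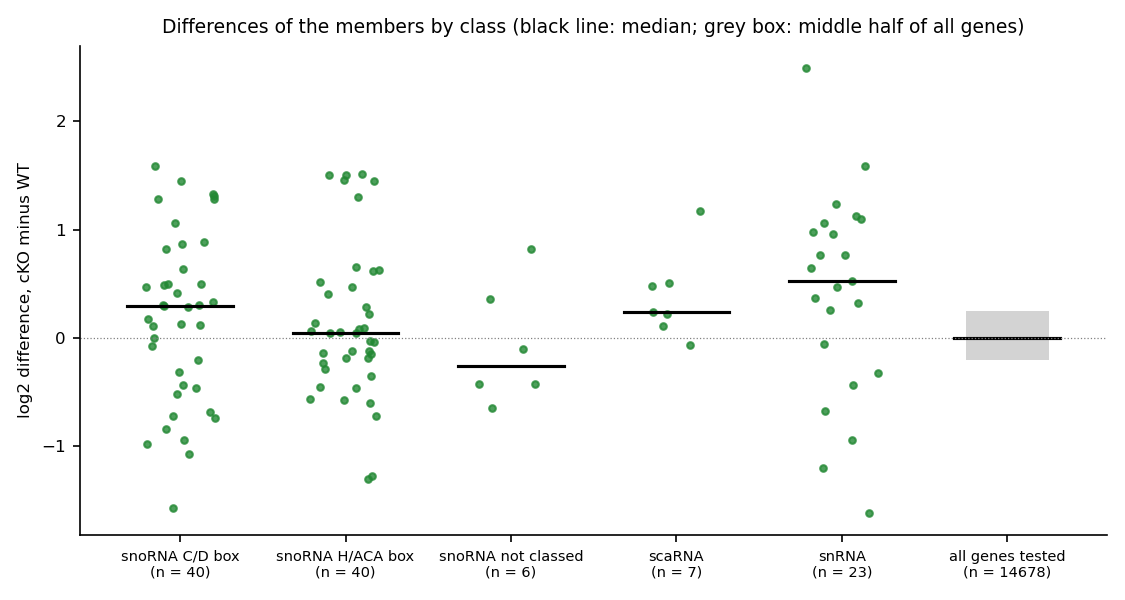
Fitted log2 difference, cKO minus WT, on the y axis for each member, by class on the x axis; each point is 1 RNA, black lines are class medians, and the grey box spans the interquartile range of all 14678 genes tested. Each snoRNA and snRNA class spreads well beyond the grey box in both directions, with Gm24265 the highest snRNA.

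Among snoRNAs, 40 were classed as C/D box (29 by symbol or a named relative, 11 by motif) and 40 as H/ACA box (19 and 21), and 6 could not be classed. The C box as spelled above was found in 34.9% of snoRNA members and in 21.7% of the 1507 snoRNAs in the annotation, the D box in 46.5% and 31.4%, and the terminal ACA in 55.8% and 46.8%. The median log2 difference was 0.29 for C/D box members (26 higher in cKO, 14 lower) and 0.04 for H/ACA box members (21 and 19), and both turned negative without WT replicate 1 (-0.03 and -0.20). Summed over their members, C/D box RNAs were at 98.1, 159 and 186 normalized counts in WT (replicates 1 to 3, as in every such series of values) and at 139, 169 and 247 in cKO. H/ACA box RNAs were at 103, 225 and 256 in WT and at 121, 226 and 306 in cKO. In both classes replicate 1 was the lowest library of its group, and the groups overlapped.

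The highest snoRNA was Gm23130, a C/D box RNA by its motifs, inside Rps12, at 45.2 normalized counts per 100 bases. Its values were 12.1, 37.3 and 49.6 in WT and 16.8, 36.1 and 49.0 in cKO, with replicate 1 the lowest of each group. The log2 difference was 0.13 ± 0.577 (SE). The second, at 18.8 per 100 bases, was Snora28, a guide of rRNA pseudouridylation inside the translation factor gene Eif5, with 8.59, 35.1 and 42.7 in WT and 8.13, 28.5 and 20.4 in cKO. Replicate 1 was low in both groups again, and the log2 difference was -0.46 ± 0.665. Pooling reads within each group gave a ratio of 0.572 for Snora28 (95% interval 0.386 to 0.833), but that interval covers counting error only and not the spread between libraries.

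Other snoRNAs among the 6 with the highest mean did not pass the test either. Gm22748, an H/ACA box RNA by motif inside the polyamine synthesis gene Odc1, had 7.58, 25.6 and 20.5 in WT and 7.59, 11.4 and 32.7 in cKO. Gm23455, an H/ACA box RNA by motif inside the RNA polymerase I factor gene Taf1d, had 8.09, 12.8 and 11.96 in WT and 6.51, 17.1 and 26.6 in cKO. For both the groups overlapped, and the log2 differences were -0.15 and 0.40. Snord104, the C/D box RNA without a host, had 10.6, 5.32 and 2.56 in WT and 8.13, 13.3 and 30.6 in cKO. Replicate 1 was the highest WT library and the lowest cKO library, the groups overlapped, and the log2 difference of 1.33 ± 0.635 did not pass limma's test (unadjusted p = 0.0679, Benjamini-Hochberg adjusted p = 0.915).

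**Figure D2:**
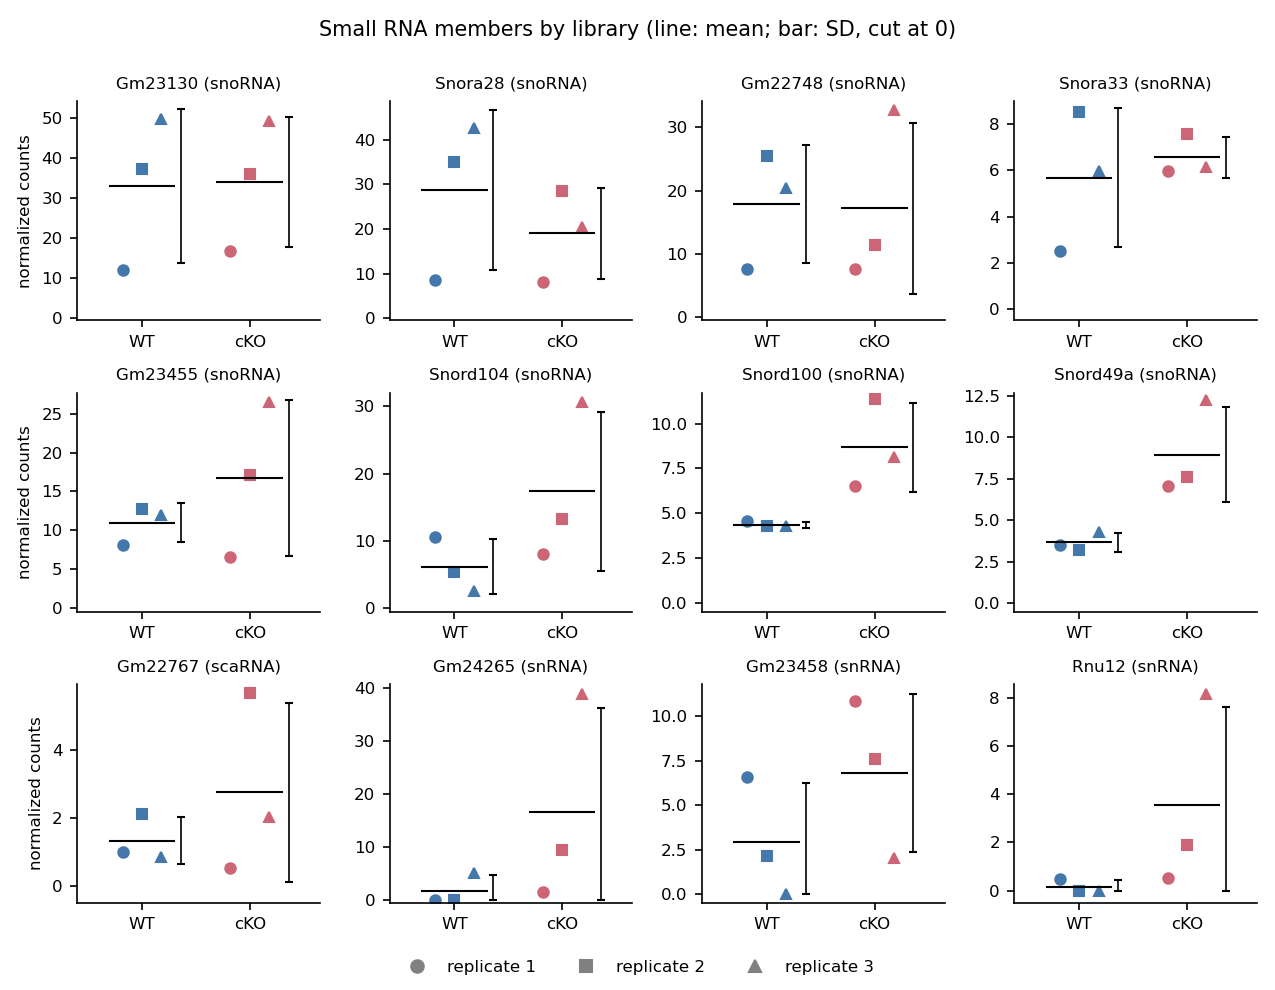
Normalized counts (y axis, linear, a separate scale per panel) of 12 members in WT and cKO libraries (x axis); each point is 1 library, its shape the replicate number, the line the mean and the bar the SD (n = 3). Snord100 and Snord49a sit higher in all 3 cKO libraries, whereas for Gm23130 and Snora28 replicate 1 is the lowest point of both groups.

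The 5 snoRNAs with the smallest p were all higher in every cKO library than in any WT library, at few reads. Snord49a, a C/D box rRNA methylation guide, had 3.54, 3.19 and 4.27 in WT and 7.05, 7.59 and 12.3 in cKO, from 15 and 23 reads. Snord7, a C/D box RNA, had 1.01, 0 and 0 in WT and 2.71, 1.90 and 4.09 in cKO. Snora78, an H/ACA box RNA in the non-coding host Snhg9, had 0, 0 and 0.854 in WT and 3.25, 1.90 and 2.04 in cKO. Read by read, Snord7 rested on 2 reads in WT and 8 in cKO and Snora78 on 1 and 8. Gm24539, an H/ACA box RNA by motif in Zfp808 with 1 identical copy, had 2 and 8 reads, and Gm22581, an H/ACA relative of Snora5c in Polr3c, had 1 and 6. Their log2 differences were 1.06 ± 0.480 for Snord49a, 1.59 ± 0.643 for Snord7, 1.45 ± 0.633 for Snora78, 1.52 ± 0.664 for Gm24539 and 1.46 ± 0.647 for Gm22581. All had a Benjamini-Hochberg adjusted p of 0.915 in limma's fit. Snord7, Snora78, Gm24539 and Gm22581 had WT means of 0.337, 0.285, 0.640 and 0.285, so they reached the mean of 1 through cKO reads. A single read also weighed more in cKO replicates 2 and 3 (1.90 and 2.04 normalized counts) than in any WT library (at most 1.06). The lack of overlap is therefore partly set by the choice of members and by depth.

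Snord100, chosen here after its values were seen, varied little among controls. It had 4.55, 4.26 and 4.27 in WT and 6.51, 11.4 and 8.17 in cKO, from 18 and 22 reads. The groups did not overlap, and the log2 difference was 0.82 ± 0.466 (limma, unadjusted p = 0.113, Benjamini-Hochberg adjusted p = 0.924). Snora33, its neighbour in Rps12, had 2.53, 8.52 and 5.98 in WT and 5.97, 7.59 and 6.13 in cKO, and like Gm23130 it overlapped between groups.

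Host genes gave a second view, since a snoRNA excised from an intron shares its transcript with the host. Members inside a gene on their own strand lay in 75 distinct host genes, of which 74 were tested. Among these hosts 13 held several members, led by Taf1d with 6 and Rpl4 with 4. Ribosomal protein genes were the host of 30 snoRNA members, in 17 distinct genes, and translation factor genes of 6. Hosts are longer RNAs and held more reads, with a median of 899 normalized counts, and their fitted differences were smaller. The median absolute log2 difference was 0.13 for hosts and 0.47 for the 98 members with a tested host. The sign was the same in 53 of the 98 pairs, and across these pairs Spearman's rho was 0.10 and Pearson's r 0.09, given as a description because members of 1 host share its value and every pair shares the same libraries.

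**Figure D3:**
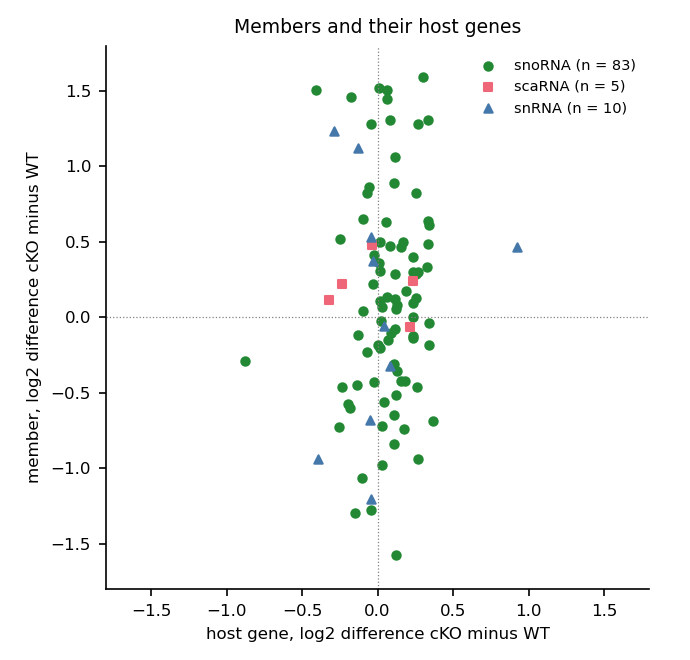
Log2 difference, cKO minus WT, of each member (y axis) against that of its host gene (x axis), 98 pairs, coloured and shaped by type. Members spread between about the same limits above and below 0 whether the host is slightly higher or slightly lower.

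Single hosts show both patterns. Rps12 itself, which encodes a protein of the small ribosomal subunit, had 5925, 5732 and 6102 in WT and 7301, 6132 and 7809 in cKO, a log2 difference of 0.25 (limma, Benjamini-Hochberg adjusted p = 0.926), while the sum of its 3 snoRNAs ran 19.2, 50.04 and 59.8 in WT and 29.3, 55.0 and 63.3 in cKO. The snoRNA sum was lowest in replicate 1 of both groups and the host was not. In Taf1d the host and its snoRNAs were both lowest in replicate 1 and highest in replicate 3 of each group. The host had 190, 323 and 373 in WT and 233, 328 and 490 in cKO, and its 6 snoRNAs together 28.3, 49.0 and 50.4 in WT and 30.4, 41.8 and 87.8 in cKO. Eif5 likewise had its lowest values in replicate 1 of each group, at 1663 and 1541, as did its Snora28. All 6 Taf1d snoRNAs and Snora28 overlap an exon of some isoform of their host, so reads of host and snoRNA may be mixed there. The host median log2 difference was 0.03, with 43 of 74 higher in cKO.

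Where a small RNA overlaps an exon of its host, a read of the host cannot be told from a read of the small RNA without knowing how overlapping genes were counted, and the sources used here do not say. Of the snoRNA members 66 lay in introns of every isoform of their host, 18 touched an exon of some isoform and 2 had no host on their strand. The 18 held 994 of the 2324 snoRNA reads, Gm23130, Snora28, Gm23455, Snord100 and Snora33 among them. Their median log2 difference was 0.12 (12 of 18 higher), against 0.06 for the 66 intronic snoRNAs (35 higher). Summed, the intronic snoRNAs were at 112, 224 and 249 in WT and at 155, 211 and 280 in cKO, so the low level in replicate 1 was also seen where no exon was touched.

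The 7 scaRNAs were few and sparse, with 58 reads in all. Gm23119, which has no host on its strand, had the largest difference. Its values were 0, 1.06 and 0.854 in WT and 0, 3.80 and 8.17 in cKO, with a log2 difference of 1.17 ± 0.892 (limma, Benjamini-Hochberg adjusted p = 0.930). The groups overlapped because cKO replicate 1 had no read. Gm22767, the member with reads in every library, had 1.01, 2.13 and 0.854 in WT and 0.542, 5.69 and 2.04 in cKO, with a log2 difference of 0.48 ± 0.713. Scarna2, a guide of U2 methylation, had 2 reads in WT and 3 in cKO (log2 difference 0.51), and Scarna6, a guide that acts on U5, had 3 and 3 (0.24). Gm22728 in G3bp2, Gm24644 in Fbxo3 and Gm25492 in Bud23 had log2 differences of 0.22, 0.11 and -0.06 on 11, 9 and 9 reads. The sequence TGAG, which is the core of the box that holds a scaRNA in the Cajal body, was found on the RNA's own strand in 5 of 7 scaRNA members (71.4%), in 72.5% of the 51 scaRNAs annotated and in 66.3% of snoRNA members.

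The summed snRNA level was set apart by 1 knockout library. Summed over 23 members, they were at 24.8, 31.9 and 44.4 normalized counts in WT and at 25.5, 43.7 and 155 in cKO. The first 2 cKO libraries lay within the WT range and cKO replicate 3 was far above every other library. Gm24265, whose sequence is shown above, had the highest mean of any snRNA member. Its values were 0, 0 and 5.13 in WT and 1.63, 9.49 and 38.8 in cKO, so cKO replicate 1 lay below WT replicate 3. The log2 difference was 2.49 ± 1.10 (limma, unadjusted p = 0.0503, Benjamini-Hochberg adjusted p = 0.915), on 6 reads in WT and 27 in cKO, and it was 1.52 without cKO replicate 3.

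Other snRNA members differed in both directions. Rnu12 had 0.506, 0 and 0 in WT and 0.542, 1.90 and 8.17 in cKO, with no overlap but only 1 and 6 reads, and a log2 difference of 1.59 ± 0.795. Gm23690, a U6 copy on the strand opposite Dnah14 whose span touches a Dnah14 exon, went the other way, with 4.04, 3.19 and 2.56 in WT and 1.63, 0 and 0 in cKO. Its log2 difference was -1.61 ± 0.658 (limma, unadjusted p = 0.0377, Benjamini-Hochberg adjusted p = 0.915). It was the only member lower in every cKO library than in any WT library. Gm23458, in an intron of Bcl7a, had 6.57, 2.13 and 0 in WT and 10.8, 7.59 and 2.04 in cKO, highest in replicate 1 of each group, unlike most members. Gm26049, in Dcaf12, had 2.53, 8.52 and 0.854 in WT and 0, 1.90 and 2.04 in cKO, and Gm24060, in Cyth1, had 4.04, 6.39 and 3.42 in WT and 1.63, 0 and 14.3 in cKO. Both overlapped between groups.

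The remaining snRNAs among the 8 highest had most reads in 1 or 2 libraries. Gm24722, the U6 copy, had 0, 1.06 and 5.13 in WT and 0, 7.59 and 10.2 in cKO, and Gm23971, a U2 copy, had 0, 0 and 3.42 in WT and 0, 1.90 and 10.2 in cKO. Gm23229, with no named relative, had 0.506, 1.06 and 0.854 in WT and 0, 0 and 10.2 in cKO, so 1 library set its mean. Gm22753, a U6 copy, had 2.02, 3.19 and 1.71 in WT and 3.80, 1.90 and 0 in cKO. The groups overlapped for all 4, and the log2 differences were 0.98, 0.96, 0.32 and -0.43. Gm23205, in Rnf14, was among the 5 smallest p-values with a log2 difference of -1.20 ± 0.736, on 9 reads in WT and 2 in cKO. Gm24480 and Gm25220, named after their values were seen, had no read in WT and 4 in cKO each. Taking 3 reads in the WT libraries together as the floor, their cKO means were 3.71 and 2.83 times that floor. Gm24480's reads all lay in cKO replicate 3. These multiples are not lower bounds, since the exact interval of the pooled read ratio, cKO to WT, started at 0.943 for both. That interval thus included equal levels. With no WT read, both members reached the threshold through cKO reads alone.

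Spliceosomal families were read from the named relative closest in sequence. Sums over the U1, U2 and U5 copies and over the U6 relatives were highest in cKO replicate 3. Among WT libraries these sums were highest in replicate 3. Single copies differed: the U1 copy Gm22513 was highest in WT replicate 3 (4.27, against 2.04 in cKO replicate 3), and the U2 copy Gm22973 had its only WT read in replicate 1. The 3 U1 copies summed to 1.01, 0 and 7.69 in WT and to 1.08, 1.90 and 18.4 in cKO. The 2 U2 copies, Gm23971 and Gm22973, summed to 0.506, 0 and 3.42 in WT and to 0, 3.80 and 14.3 in cKO. The 2 U5 copies, Gm23287 and Gm25313, were at 0 apart from WT replicate 3, at 1.71, and cKO replicate 3, at 14.3. The U6 relatives had the flattest profile of these families. The 6 of them summed to 7.08, 9.58 and 15.4 in WT and to 6.51, 11.4 and 22.5 in cKO. They include diverged copies, such as Gm23690 at 86.9% identity and Gm23318, in an intron of Mtor, at 88.5%. Whether their reads come from U6 transcription was not tested. Of the snRNA members 9, Gm24265 among them, had no named relative in the annotation and are given by symbol only. No family was assigned to them here, so these sums need not cover every spliceosomal family present.

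The snRNA members were also split by their place in the genome. The 13 snRNAs without a host on their strand summed to 8.09, 8.52 and 25.6 in WT and to 8.13, 26.6 and 114 in cKO. Their median log2 difference was 0.77, with 11 of 13 higher in cKO. Of genes with a mean under 10, 54.1% were higher, with a median of 0.08. Members were chosen by the mean over all libraries, so some reached it mainly through cKO reads, as Rnu12 did (WT mean 0.17). The count of higher members is therefore partly set by that choice. The 9 in a host intron summed to 16.2, 21.3 and 18.8 in WT and to 16.8, 17.1 and 32.7 in cKO, with a median of -0.06 (4 of 9 higher). The difference between the 2 sets was not tested. Both sets were highest in cKO replicate 3.

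**Figure D4:**
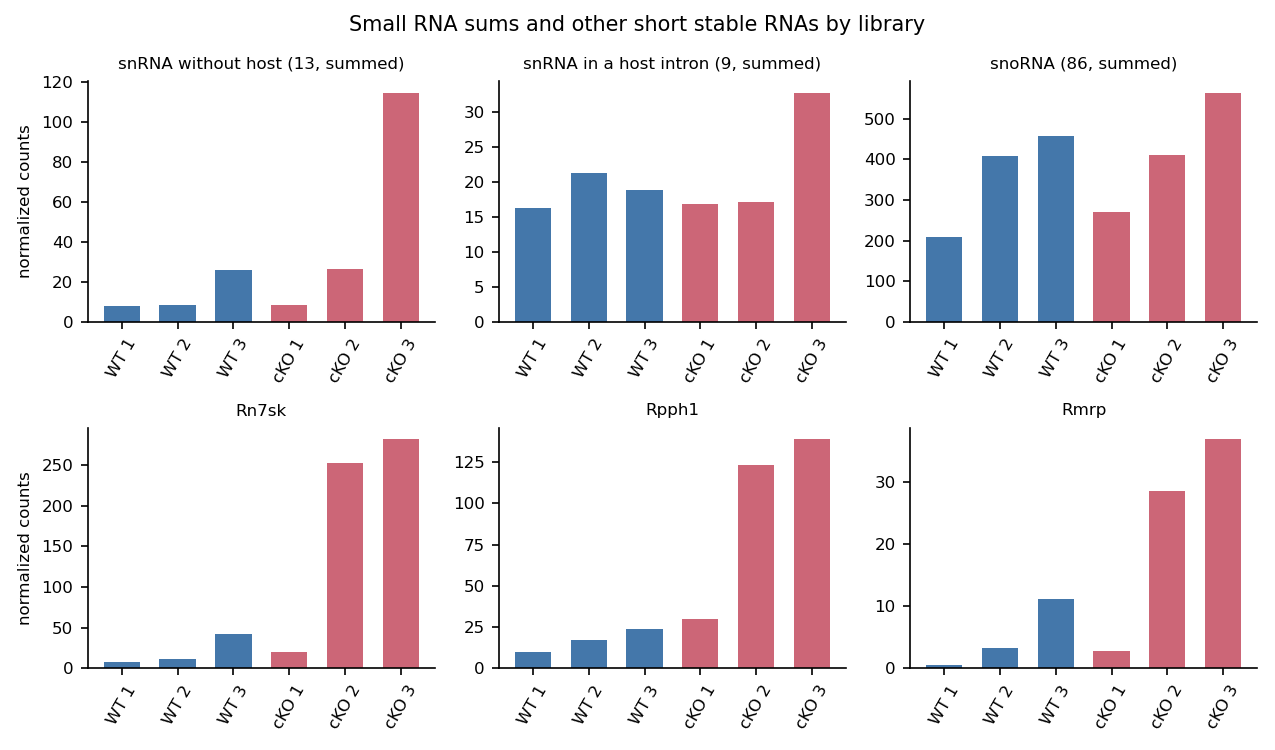
Normalized counts (y axis, linear from 0, a separate scale per panel) in each of the 6 libraries (x axis): sums over the 13 host-free snRNAs, the 9 snRNAs in a host intron and the 86 snoRNAs, and the single genes Rn7sk, Rpph1 and Rmrp. Host-free snRNAs stand out in cKO replicate 3 alone, the 3 single genes in cKO replicates 2 and 3, and snoRNAs are lowest in replicate 1 of both groups.

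As a share of all reads assigned to genes, counting every listed row of a type, snoRNAs took 47.0, 80.8 and 90.8 RPM (reads per 1000000 reads) in WT and 56.6, 77.2 and 96.7 in cKO. The means were 72.9 ± 22.96 and 76.8 ± 20.01 (SD, n = 3 each), a ratio of 1.05, so the groups differed by less than the spread within either. scaRNAs took 1.55, 2.33 and 2.45 in WT and 1.66, 4.97 and 3.57 in cKO, a ratio of 1.61. snRNAs took 7.06, 8.91 and 14.6 in WT and 8.28, 11.6 and 28.9 in cKO, a ratio of 1.60 that fell to 0.977 without cKO replicate 3. The exact binomial 95% interval of that library's snRNA share, 23.2 to 35.5, lay above that of every other library, the nearest being WT replicate 3 at 11.8 to 17.8. For snoRNAs the intervals of the 2 libraries numbered 1, 42.9 to 51.4 in WT and 52.0 to 61.6 in cKO, lay below those of the other 4. The scaRNA interval of cKO replicate 2, 2.78 to 8.19, lay above those of both libraries numbered 1 and overlapped the other 3. Counting intervals cover neither the spread between animals nor duplicate reads.

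**Figure D5:**
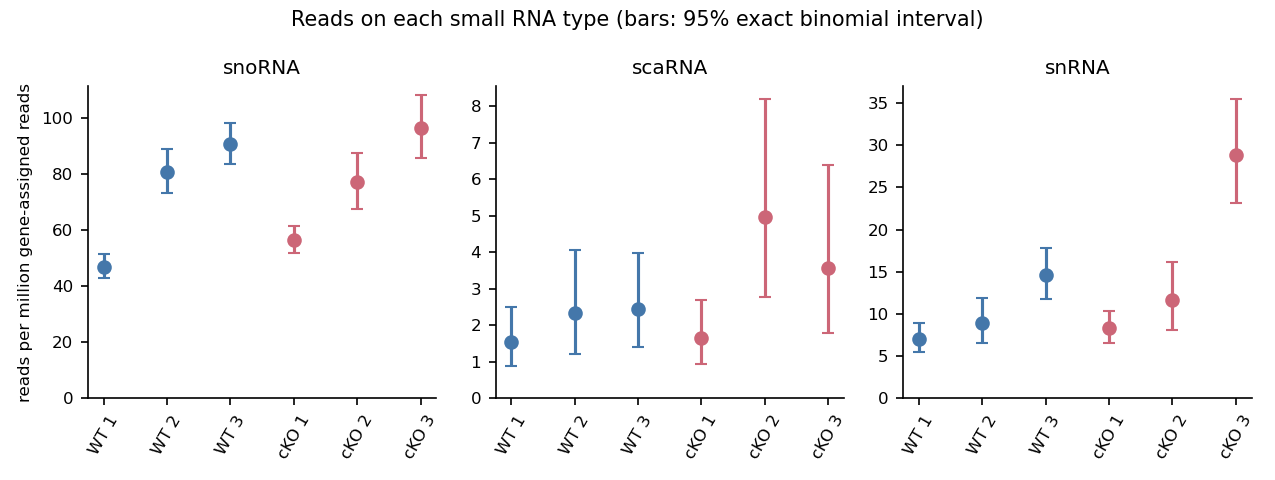
Reads per 1000000 gene-assigned reads (RPM, y axis, linear from 0) on snoRNAs, scaRNAs and snRNAs in each of the 6 libraries (x axis); points are the measured shares and bars the exact binomial 95% intervals. The snRNA share of cKO replicate 3 (28.9) lies above the intervals of the other 5 libraries, and both replicate 1 libraries are lowest for snoRNAs.

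The mitochondrial share of reads was also lowest in the replicate 1 libraries, at 2.71% and 3.66%, and highest in cKO replicate 3, at 19.1%, the libraries in which snoRNAs were lowest and snRNAs highest. Its part in the results was not tested. Splitting the comparison by replicate gave a median log2 difference of 0.33 within replicate 1 and -0.01 within replicates 2 and 3 for snoRNAs. For snRNAs it was 0.00 and 0.85, and for scaRNAs 0.47 and 0.45.

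The other short RNAs with their own promoters that reached a mean of 1 were high in cKO replicates 2 and 3. Rn7sk, the 7SK RNA that holds the elongation kinase P-TEFb inactive, had 7.58, 11.7 and 41.9 in WT and 19.5, 252 and 282 in cKO, a log2 difference of 2.77 ± 1.00, with overlap between groups. Rpph1, the RNA of RNase P, which trims tRNA ends, had 9.61, 17.0 and 23.9 in WT and 29.8, 123 and 139 in cKO, a log2 difference of 2.27 ± 0.597 with no overlap. Rmrp, the RNA of the related RNase MRP, had 0.506, 3.19 and 11.1 in WT and 2.71, 28.5 and 36.8 in cKO. None passed limma's test after Benjamini-Hochberg adjustment, all at an adjusted p of 0.915. Of the 4 such RNAs tested all 4 were higher in cKO, with a median log2 difference of 2.10, against 0.53 for snRNA members. Of these, Vaultrc5 reached the mean of 1 through its cKO reads (means 0.337 in WT and 2.81 in cKO). Another 3 lay below that mean and were not tested: Rny1 had reads in WT only, and Terc and Rn7s2 had higher means in cKO. Replication-dependent histone mRNAs, which like snRNAs end without the usual poly(A) tail, were higher for 32 of 36 tested, with a median of 0.73. Of all genes 49.8% were higher (median 0.00), and of genes with a mean under 10, 54.1% (median 0.08). Another 26 histone genes lay below the mean of 1. That mean includes cKO reads, so the count of higher histone genes may be partly set by that choice. Their median was 0.12 within replicate 1 and 1.01 within replicates 2 and 3. In limma's fit 0 were called and 7 were higher at an unadjusted p under 0.05 (all genes, 2.98%). The 3 histone genes with the highest mean did not follow: Hist1h1c, Hist1h4i and Hist2h2be had log2 differences of -0.01, -0.03 and -0.55.

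No gene for the proteins that build snoRNA particles passed the test. Of the box C/D proteins the methylase Fbl and the scaffold proteins Nop56 and Nop58 were tested, all 3 higher in cKO with a median log2 difference of 0.17. Nop56, itself a snoRNA host, was at 1015 ± 46.4 in WT and 1325 ± 270 in cKO (SD, n = 3 each) with no overlap. Its log2 difference of 0.37 ± 0.159 had a Benjamini-Hochberg adjusted p of 0.915 in limma's fit. Of 6 H/ACA proteins 5 were higher (median 0.13), among them the pseudouridine synthase Dkc1 (760 ± 104 against 820 ± 191) and Nhp2 (399 ± 39.8 against 482 ± 9.46). Of 8 genes listed as assembly factors 5 were higher (median 0.12). The highest in that list, Zfp706, a zinc finger gene, was lower in all 3 knockouts (1146 ± 77.5 against 905 ± 120). It did not pass limma's test (Benjamini-Hochberg adjusted p = 0.915), and its part in assembly was taken from the list and not tested.

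Nor did any gene for scaRNA or snRNA assembly, transcription or trimming pass. Of 17 Cajal body and SMN complex genes 9 were higher and 8 lower, with a median of 0.08, and Nolc1, a Cajal body and nucleolar chaperone, was at 1074 ± 97.0 in WT and 1178 ± 140 in cKO. Of 37 Sm and snRNP protein genes 15 were higher and 22 lower (median -0.03), and Prpf8, at the core of the spliceosome, was at 4285 ± 368 and 3970 ± 90.2. Among 22 genes of snRNA transcription and 3′ end cleavage, 9 were higher and 13 lower (median -0.02). Of 19 genes of trimming and modification 12 were higher (median 0.04), with the nuclear exosome nuclease Exosc10 at 683 ± 114 and 760 ± 79.4. Gas5 and the Snhg genes, which are non-coding hosts, were higher for 10 of 12 (median 0.17). Gas5 was at 570 ± 33.1 in WT and 647 ± 39.2 in cKO without overlap, a log2 difference of 0.18 ± 0.124 (limma, Benjamini-Hochberg adjusted p = 0.928). limma called 0 genes in each of these lists.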

How the data were processed

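RNA sequencing measured 6 libraries of sorted germinal center B cells, grouped by their titles. Tools listed in the submitters' processing notes, with no role or order, are the aligners TopHat2, HISAT and HISAT2, then SAMtools, HTSeq and DESeq2, and the build is mm10. The sources used here do not give the strand setting or the handling of multiple matches and overlapping genes. The authors deposited a signal per gene and library: counts divided by a size factor. Their table also holds a log2 fold change with its standard error, a test score and p-values, per the file headers, quoted only as the authors' deposited table.

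All values (100%, within 0.01 read) were whole multiples of 1 read, so reads were recovered. Because the table is normalized, limma 3.58.1 (R 4.3.3) was fitted with a mean-variance trend to log2(value + 1) over genes with a mean of at least 1, genotype alone, Benjamini-Hochberg adjusted. edgeR 4.0.16 and DESeq2 1.42.0 were alternatives on recovered reads. The fit was also run on simulated data. Only genes at levels above that of every member (highest mean 33.5) were changed there. It therefore does not show how well differences of the members are found. Read ratios and shares carry exact 95% intervals.

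Positions, hosts and sequences come from GENCODE M21 (GRCm38). Relatives needed 80% identity over 70% of the length. Members and lists were chosen with earlier results of these data known. Named members are the highest 6 snoRNAs, the highest 8 snRNAs or their summed families, all scaRNAs, those with the smallest p per type (up to 5), Rnu symbols and those at the threshold, and of each list the highest genes; members shown for a shared host or copy were added. A member that the rule names and some sequences are not reported here.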

Additional observations from a re-analysis of the deposited data

How the results depend on the processing

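No member was called under any of the 15 alternatives. For 30 named members, 26 of 426 alternative log2 differences had another sign (14 members), none passed the threshold, and the smallest limma or count-test adjusted p was 0.371 with the replicate block. Over all genes, DESeq2 called 19, the replicate block 1 and a term for replicate 1 3, against 0. The correlations of same-numbered deviations were 0.49, 0.05 and 0.20. The libraries numbered 1 had the highest correlation of any WT and cKO pair, and WT replicate 1 was at -0.21 with cKO replicate 2 and -0.25 with cKO replicate 3. For number 2 a pairing was not seen: cKO replicate 2 correlated better with WT replicate 3 (0.17) than with its own number. For number 3 the correlation of 0.20 was the highest for either library, but close to that 0.17. What the libraries numbered 1 share was not tested. The median log2 difference of scaRNAs was 0.97 by DESeq2 and that of C/D box snoRNAs 0.73 at a mean of at least 10, which leaves 2 of them, 8 members in all and no scaRNA. The snRNA median was 0.26 with library totals, 0.29 with TMM, 1.31 with edgeR and 1.49 with DESeq2. The host median was -0.049 with library totals. Leaving out 1 library moved the medians from -0.13 to 0.25 for snoRNAs, -0.07 to 0.69 for scaRNAs, -0.30 to 0.94 for snRNAs, -0.031 to 0.33 for C/D box, -0.20 to 0.30 for H/ACA box and -0.027 to 0.071 for hosts. Calls stayed at 0 to 0 for members and all genes. The cKO to WT ratio of read shares moved from 0.895 to 1.20 for snoRNAs, 1.24 to 2.02 for scaRNAs and 0.977 to 2.03 for snRNAs. The cause of these shifts was not tested. The median member had 18.5 reads among snoRNAs and 9 among scaRNAs and snRNAs, and the median standard error of a log2 difference was 0.729, 0.844 and 0.878, against 0.286 over all genes. Genes with a mean of 10 or more gave 0 calls too, so what part depth had in the lack of calls was not tested.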
